A study of Homo sapiens with 32 samples.

Results

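The regions described here carried an m6A peak in every library of an immortalized kidney tubule line and in no library of a kidney cancer line. They were found by merging overlapping peaks of 16 peak lists on the autosomes and were selected on the authors' peak calls, keeping each merged region that held a peak in all 8 RPTEC lists and in none of the 8 786-O lists. This gave 144 regions out of 96019, or 0.15% of all merged regions. These calls are a description, and none of them is tested. RPTEC are renal proximal tubule epithelial cells immortalized with telomerase, and 786-O is a cell line from a clear cell renal cell carcinoma. Each cell line was represented by its SETD2-expressing parent (WT), by SETD2KO-1 and SETD2KO-2, which are single CRISPR/Cas9 knockout clones without the histone H3 lysine 36 trimethylase SETD2, and by SETD2KO-1R, a clone of SETD2KO-1 that re-expresses a tagged full-length SETD2. No line received a treatment. Each line had 2 replicates of methylated RNA immunoprecipitation sequencing (MeRIP-seq), in which fragmented RNA is pulled down with an m6A antibody and sequenced against its Input.

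The 2 cell lines were grown in different media, and their lists carry different experiment names, so that cell line, medium and experiment cannot be told apart in any RPTEC to 786-O comparison. The RPTEC lists held 18432 to 30341 autosomal peaks and the 786-O lists 24797 to 38317. Sequencing depth cannot be read from these lists, which give positions and scores alone. A transcript that is not made and a transcript that is made but not methylated both leave no peak. The Input libraries were not analysed here. Of the proximal tubule markers, 5 of 12 had a peak in an RPTEC library (summed peaks 18 to 47 per library) and 6 of 12 in a 786-O library (19 to 46), with LRP2, AQP1, SLC34A1, SLC22A6, SLC22A8 and MME without a peak in either cell line. Of the epithelial markers, 5 of 6 had a peak in at least 1 RPTEC library and 3 of 6 in at least 1 786-O library, and CDH1 had none in either cell line. Of the clear cell renal cell carcinoma markers, 4 of 6 had a peak in at least 1 RPTEC library and 5 of 6 in at least 1 786-O library, and CA9 had none. Counting only markers with a peak in all 8 libraries of a cell line, in the same order, RPTEC had 5, 3 and 2. By that count 786-O had 4, 2 and 2. A missing peak in a marker does not tell whether its RNA was present.

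N6-methyladenosine is placed on adenosines of nascent RNA by a methyltransferase complex built around METTL3, mostly within a short motif with the common core GGAC, and is read by YTH and IGF2BP proteins that steer splicing, decay and translation. In mRNA it is most frequent in long internal exons and near the stop codon. In renal tubule cells and in renal cancer it is studied because SETD2, which is often lost in clear cell tumors, writes H3K36me3, a chromatin mark that METTL14 of the same complex can bind.

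Windows around the starts of protein-coding genes that lie inside these regions are shown first, since no other sequence at or near the regions was used here. Of the 144 regions, 16 covered an annotated start of 1 or more of 17 protein-coding genes, and in 13 of those 17 genes the median peak summit lay downstream of the start (median over the 17 of 99 bp, range -360 to 1477). Of the 86 regions with a usable gene strand, 10.5% had their summit within 2 kb inside the gene's start, beside 10.6% of the 3929 such regions among all those called in every RPTEC list. The sequences below run from 250 bases before the start to 30 bases after it, on the strand of the gene (RefSeq, GRCh38.p14), for TFCP2, whose region ranked highest of all, and for the transcription factor FOXL2, the ligand SHH and its antagonist HHIP, which were picked after their values were seen. Capitals mark GGAC and its reverse complement GTCC. TFCP2 is read from the minus strand of chr12:51173106-51173385, FOXL2 from the minus strand of chr3:138947108-138947387, SHH from the minus strand of chr7:155812434-155812713 and HHIP from the plus strand of chr4:144645906-144646185.
TFCP2: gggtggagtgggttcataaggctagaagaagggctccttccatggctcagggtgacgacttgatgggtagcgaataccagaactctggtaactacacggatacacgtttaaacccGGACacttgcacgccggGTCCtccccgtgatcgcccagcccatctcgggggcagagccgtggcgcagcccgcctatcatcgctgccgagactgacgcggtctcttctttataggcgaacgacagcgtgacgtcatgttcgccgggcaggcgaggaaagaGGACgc
FOXL2: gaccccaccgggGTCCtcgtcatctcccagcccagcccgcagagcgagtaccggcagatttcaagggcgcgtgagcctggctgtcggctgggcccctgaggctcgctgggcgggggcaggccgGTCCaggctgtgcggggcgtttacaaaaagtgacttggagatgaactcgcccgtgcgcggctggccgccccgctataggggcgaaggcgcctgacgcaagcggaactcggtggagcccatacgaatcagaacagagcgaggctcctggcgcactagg
SHH: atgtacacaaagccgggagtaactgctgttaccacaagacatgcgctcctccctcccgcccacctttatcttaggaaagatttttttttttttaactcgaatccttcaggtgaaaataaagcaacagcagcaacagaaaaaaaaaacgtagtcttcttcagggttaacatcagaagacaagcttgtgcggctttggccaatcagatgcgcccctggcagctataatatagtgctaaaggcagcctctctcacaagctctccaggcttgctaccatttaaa
HHIP: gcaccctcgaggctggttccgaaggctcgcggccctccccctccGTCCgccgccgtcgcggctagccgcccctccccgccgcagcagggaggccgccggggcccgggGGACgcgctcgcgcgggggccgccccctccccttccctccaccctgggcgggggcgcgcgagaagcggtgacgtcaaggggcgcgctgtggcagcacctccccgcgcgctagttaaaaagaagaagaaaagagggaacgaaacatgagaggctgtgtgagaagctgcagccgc

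The FOXL2 and HHIP windows lie wholly inside their regions, whereas those of TFCP2 and SHH run upstream past the region's edge, at position 51173168 of chromosome 12 and 155812564 of chromosome 7. The TFCP2 window held GGAC 2 times on the sense strand, of which the first, like its GTCC, lies outside the region and the other within the transcribed bases shown. The SHH window held neither spelling. The counts that follow are over whole windows, including bases outside the regions. GGAC or GTCC occurred in 15 of the 17 windows of 300 bases, or 88.2%, beside 90.6% of all 15100 autosomal protein-coding start windows in the RefSeq table. On the sense strand, GGAC occurred in the first 50 transcribed bases of 4 of the 17 (23.5%, against 19.8% of all). The median GC content of the windows was 68% (43.3% to 83.3%), and that of all windows was 63%. A match is a description of letters in a window and not a methylated site.

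The whole set of calls shows how few regions were complete in one cell line and empty in the other. Of the 96019 merged regions, 5454 were called in all 8 RPTEC lists, and 4079 of these were called in all 8 786-O lists as well. The 144 regions were 2.64% of the 5454. The opposite corner, called in all 8 786-O lists and in no RPTEC list, held 167 regions. Just outside the rule, 145 regions were called in 7 RPTEC lists and no 786-O list, and 36 regions in all 8 RPTEC lists and 1 786-O list. In the 145, the single RPTEC list without a peak was that of SETD2KO-2 replicate 2, the shortest of the lists, in 51 regions and that of WT replicate 2 in 28.

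**Figure D1:**
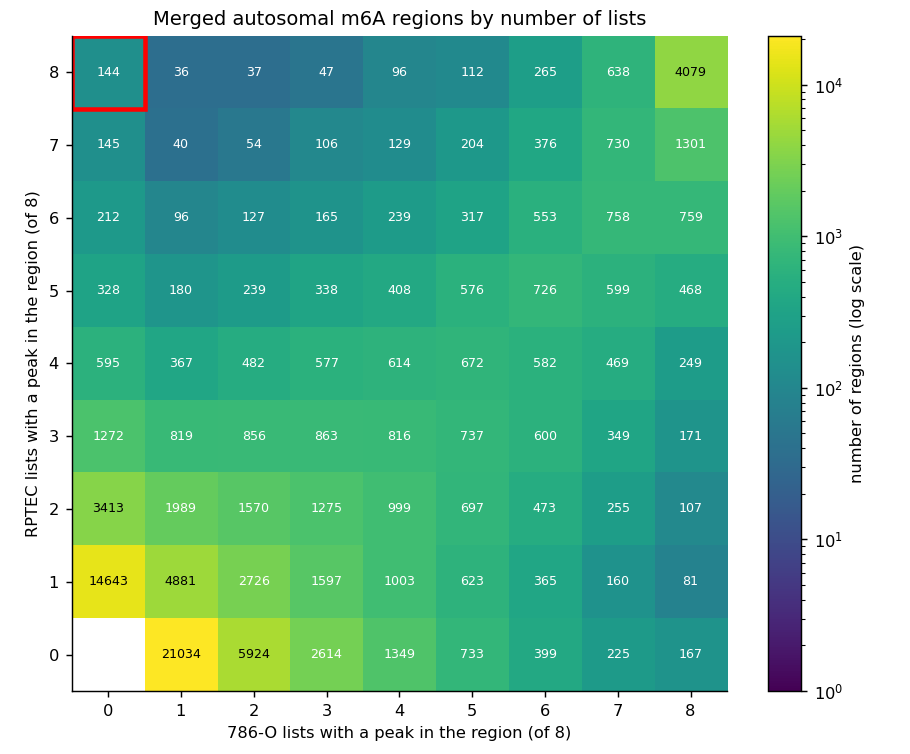
Number of merged autosomal regions by how many of the 8 RPTEC lists (vertical axis) and of the 8 786-O lists (horizontal axis) held a peak, on a logarithmic color scale. The red square marks the 144 regions described here, and the last square of the same row holds the 4079 regions called in all 16 lists.

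The peak score was used only as a rank within each library's own list, where 0 is the lowest and 100 the highest scoring peak of that list, because the scale of the deposited score is not stated. For each region the best peak of each library was ranked. The mean rank over the 8 RPTEC libraries ranged from 22.98 to 95.4 with a median of 64.2, while the 4079 regions shared by all 16 lists had a median of 71.3 (14.5 to 99.9). Of the 144 regions, 9 had a mean rank of 90 or more and 114 a mean rank of 50 or more. In all, 36 regions never ranked below 50 in any RPTEC library. The 144 regions together varied more between libraries, with a median SD of rank of 17.5 over 8 libraries against 12.6 for the shared regions. Their median length was 960.5 bp (335 to 3196), and that of the shared regions was 1146 bp (305 to 7685). In 131 regions at least 1 base was covered by peaks of all 8 RPTEC libraries, and in 96 regions every library contributed exactly 1 peak.

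The median rank of the 144 regions was 65.7 and 64.1 in WT, 70.8 and 71.1 in SETD2KO-1, 66.5 and 63.6 in SETD2KO-2 and 66.3 and 64.1 in SETD2KO-1R. Both SETD2KO-1 libraries thus lay above the other 6. The regions shared by all 16 lists had a higher median than the 144 in each RPTEC library (71.57 to 76.98). The gap was narrowest in SETD2KO-1 replicate 2, at 71.1 against 71.6, and widest in SETD2KO-1R replicate 2, at 64.1 against 76.1. In each library 93 to 110 of the 144 were in the upper 50% of the list and 13 to 23 in the top 10%. Ranks of the 144 regions correlated between pairs of RPTEC libraries with a Spearman rho of 0.222 to 0.618 (median 0.472 over the 4 pairs of the same line and 0.427 over the 24 other pairs). Over all 5454 regions these were 0.483 to 0.695, 0.591 and 0.575. The points are regions of the same libraries and the correlations are given without a test.

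The highest ranked region lay at the start of TFCP2 (chr12:51172139-51173168), a transcription factor of the grainyhead family. Its ranks were 91.1 and 97.5 in WT, 90.1 and 96.6 in SETD2KO-1, 96.8 and 98.2 in SETD2KO-2 and 94.9 and 98.0 in SETD2KO-1R. All 8 libraries thus placed it in the top 10% of their lists, and TFCP2 had no peak in any 786-O library. A region inside MLPH (chr2:237516885-237518502), which encodes a linker between vesicles and myosin, ranked from 91.3 to 98.7 with a median of 94.6. A region in the last part of PXDN (chr2:1634055-1634597), which encodes a peroxidase that crosslinks collagen IV, ranked from 90.2 to 97.4 with a median of 94.0. These 3 regions were in the top 10% of every RPTEC list.

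The other 7 of the 10 highest ranked regions in protein-coding genes were less even between libraries. The region in TCIM on chromosome 8, which encodes a small regulator of Wnt signaling, ranked at 72.8 in WT replicate 1 and from 90.8 to 99.4 in the other 7 libraries. The region of AFAP1L2 (chr10:114295639-114296440), an actin-associated adaptor, ranked from 83.0 to 96.7 (median 92.7), and that of DENND2A (chr7:140639586-140642004), an exchange factor for a Rab GTPase, from 77.8 to 97.4 (median 93.7). The top region of SIM2, a bHLH-PAS transcription factor, ranked from 82.3 to 97.6, and that of PLAAT3, a phospholipase and acyltransferase, at 75.9 in WT replicate 2 and from 89.2 to 94.0 in the other 7. CNIH3, which encodes an auxiliary protein of AMPA receptors, followed with 81.1 to 96.3. CCDC8, a partner of CUL7 in the 3M complex, held the longest region of all (chr19:46410402-46413597, 3196 bp), which ranked at 61.1 in SETD2KO-2 replicate 2 and from 86.4 to 98.9 elsewhere. The next longest were the single region of the protocadherin PCDH20 (3171 bp, rank 54.6 to 86.5) and a second region of PXDN (2524 bp, rank 26.6 to 94.95). In that second PXDN region no base was covered by peaks of all 8 RPTEC libraries.

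**Figure D2:**
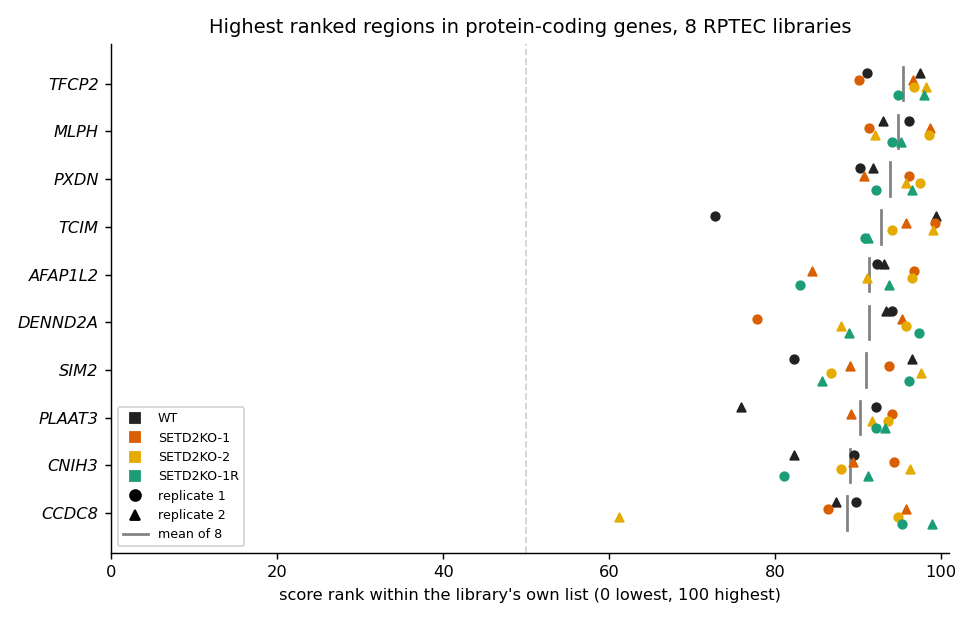
Score rank of the 10 highest ranked regions in protein-coding genes (horizontal axis, 0 lowest to 100 highest peak of the library's own list), with a color for each RPTEC line, a symbol for each replicate and a bar at the mean of 8. TFCP2, MLPH and PXDN stay above 90 in all 8 libraries, while TCIM at 72.8, DENND2A at 77.8, PLAAT3 at 75.9 and CCDC8 at 61.1 have the lowest single values of the 10 regions.

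At the other end, the 3 lowest regions just inside the rule lay in TMEM178B (mean rank 22.98, range 11.7 to 30.8), HIVEP3 (27.0, 9.95 to 57.4) and ADAMTS12 (27.4, 2.87 to 69.1). Just outside it, the highest ranked regions called in 7 RPTEC lists lay in AFAP1L2 (mean rank 99.4 over the 7, no peak in SETD2KO-2 replicate 2), in PXDN (98.0, no peak in WT replicate 1) and in no protein-coding gene on chromosome 17 (94.0, no peak in WT replicate 2). The highest ranked regions with 1 786-O call lay in LPCAT2 (93.2, 786-O SETD2KO-1R replicate 2), KCNIP3 (90.2, 786-O WT replicate 2) and EMX2 (88.7, 786-O SETD2KO-2 replicate 2). The boundary of the rule thus ran through single calls of single libraries, also for regions near the top of the lists.

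By the median summit, 120 of the 144 regions (83.3%) lay in protein-coding genes, 11 in other genes only and 13 (9.03%) in no annotated gene, whereas 93.0% of the regions shared by all 16 lists lay in protein-coding genes and 3.41% in no gene. The 120 regions fell in 95 genes. For 86 of them a single gene with a known strand could be used, and 10 lay in the first 10% of the gene body, 24 in the last 10% and 52 between (11.6%, 27.9% and 60.5%). The shared regions had 9.88%, 32.4% and 57.7% in the same parts. Positions are given along the gene body, since the annotation used holds no exons. None of the 144 regions held a miRNA hairpin of the RefSeq table.

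Some regions lay close together. Counting regions of 1 gene or within 100 kb of each other as a locus gave 109 loci, and 22 of these held several regions and 57 of the 144 regions in all, while the other 87 loci held a single region each. The same count was not made for the regions shared by all lists. The largest cluster had 5 regions over 102.9 kb at SIM2 on chromosome 21, with 4 regions in SIM2 and 1 in the noncoding LOC105369308 beside it. PXDN and CDH4, which encodes R-cadherin, held 4 regions each. MLPH, CNIH3, the ephrin receptor EPHB2, the Ras exchange factor RASGRF2 and CDH13, which encodes T-cadherin, held 3 each. Another cluster of 3 regions lay in no gene on chromosome 4, 495346 to 504297 bp from the nearest 786-O peak. Its first region (chr4:189233914-189234879) ranked at 44.3 in WT replicate 1 and from 99.68 to 99.98 in the other 7 libraries, and was named after its values were seen. No base of this region was covered by peaks of all 8 RPTEC libraries, so its ranks need not be of the same site.

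The peaks over each whole gene body, the regions themselves included, were then counted in every library, so that the rule sets a minimum for the RPTEC counts. Of the 95 genes, 62 had no peak in any 786-O library, 23 had a peak in 1 to 7 and 10 in all 8. These genes held 77, 31 and 12 of the 120 regions. Any gene without a 786-O peak that is called throughout RPTEC must hold such a region, so the share of such genes is set by the rule. PXDN carried 7 to 19 peaks per RPTEC library (median 11) and none in 786-O. SIM2 carried 4 to 10 (median 7.5) and MLPH 6 to 13 (median 10), again with none in 786-O. CDH13, a gene of more than a megabase, carried 27 to 51 peaks per RPTEC library (median 39.5) and not 1 in the 8 786-O lists. CDH4 carried 9 to 47 in RPTEC (median 27), and in 786-O it had 1 peak in SETD2KO-1 replicate 1, 2 in SETD2KO-1R replicate 1 and 1 in SETD2KO-1R replicate 2. In 77 of the 95 genes every RPTEC library had more peaks than every 786-O library, which held for 0.633% of all 19122 autosomal protein-coding genes. The rule itself used this contrast, so that nothing is read from the difference.

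In other genes the 786-O lines were not alike. TMEM178B, which encodes a transmembrane protein, had 11 and 13 peaks in the 786-O WT libraries, 2 and 2 in SETD2KO-1 and none in SETD2KO-2 or SETD2KO-1R, next to 17 to 33 in RPTEC. CNIH3 had 1 and 0 peaks in 786-O WT, 2 and 5 in SETD2KO-1, 4 and 4 in SETD2KO-2 and 2 and 2 in SETD2KO-1R, next to 6 to 21 in RPTEC. HIVEP3, a zinc finger protein of the enhancer-binding HIVEP family, had 2, 1, 1 and 1 in 786-O WT and SETD2KO-1 and none in the other 4 libraries, next to 8 to 21 in RPTEC. Each 786-O knockout is 1 clone, and these per-line counts were not tested.

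**Figure D3:**
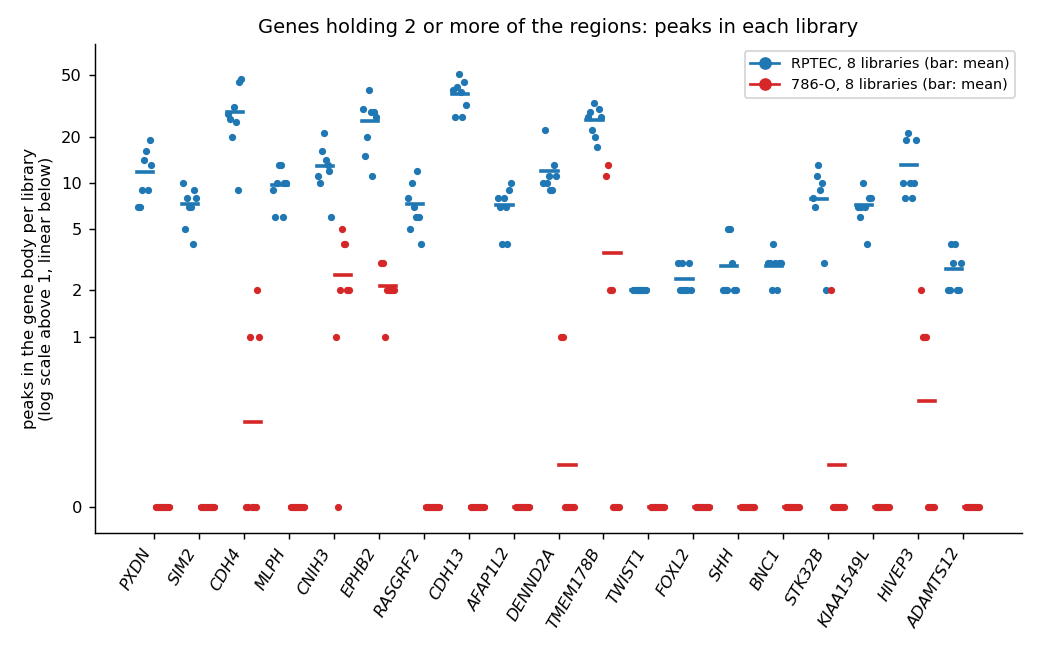
Number of peaks over the gene body in each library (vertical axis, logarithmic above 1 and linear below) for the 19 genes that hold 2 or more of the regions, with RPTEC in blue, 786-O in red and a bar at the mean of 8 libraries. RPTEC points lie above all 786-O points of the same gene in 18 of the 19 genes (STK32B is the exception), and TMEM178B has the highest 786-O counts, 11 and 13, in its WT libraries.

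In 10 genes the region had no 786-O peak although the gene had one elsewhere in all 8 786-O lists. They were EPHB2, C17orf67, ASTN2, KCNIP1, ARL10, HOXB8, TNFRSF10A, SIPA1L1, XRCC3 and DLC1. EPHB2, C17orf67, HOXB8, TNFRSF10A and SIPA1L1 also held 1 region each that was called in all 16 lists. HOXB8, a homeobox transcription factor, had exactly 1 peak in each 786-O library and 2 or 3 in each RPTEC library. Its RPTEC region (chr17:48614539-48615471, rank 27.5 to 78.3) lay 792 bp from the nearest 786-O peak. EPHB2 had 1 to 3 peaks per 786-O library and 11 to 40 per RPTEC library, and its highest region (chr1:22909311-22910401, rank 69.3 to 94.9) was 2840 bp from a 786-O peak. ASTN2, which encodes astrotactin 2, ran the other way over the whole gene, with 4 to 41 peaks per 786-O library and 2 to 11 per RPTEC library. Its region overlaps TRIM32, which lies within ASTN2, so the gene of origin cannot be told from these lists. KCNIP1, a potassium channel-interacting protein, had 9 to 20 peaks in 786-O and 7 to 21 in RPTEC.

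Over all 144 regions the nearest 786-O peak was 350 bp to 1397684 bp away, with a median of 58844 bp. For 57 regions it was more than 100 kb away, for 58 it was 10 to 100 kb, for 22 it was 1 to 10 kb and for 7 it was within 1 kb. These 7 lay in TMEM178B (350 bp), PPL (385 bp), EPHB4 (480 bp), LOC124903398 (543 bp), XRCC3 (580 bp), HOXB8 (792 bp) and DLC1 (829 bp). The median region was longer than each of these distances.

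**Figure D4:**
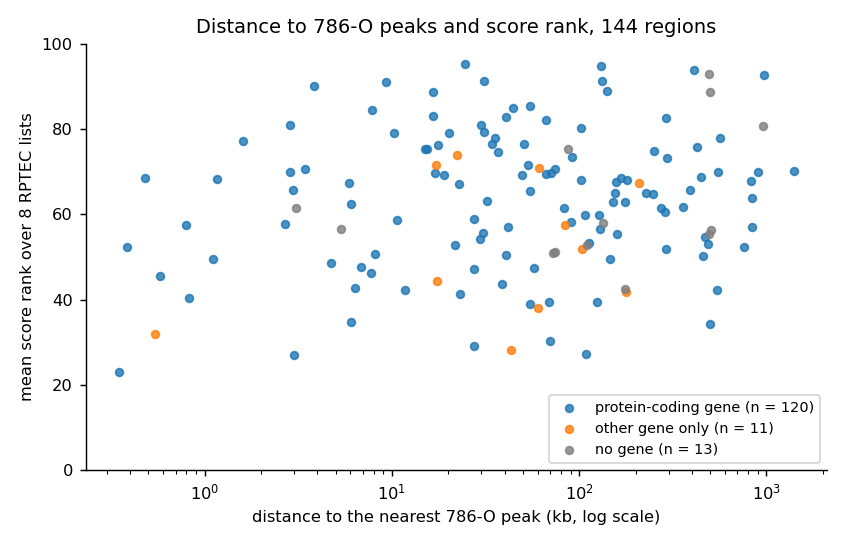
Distance from each of the 144 regions to the nearest 786-O peak (horizontal axis, kb, logarithmic) against its mean score rank over the 8 RPTEC lists (vertical axis), colored by the kind of gene at the median summit. Distances run from 350 bp to 1397684 bp, and the points above a mean rank of 80 are spread from a few kb to nearly 1000 kb.

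The genes were read against 20 named lists and 4 symbol families, beside the share over all genes. Of the 3914 protein-coding genes with a region called in all RPTEC lists, 95 held one of the 144 regions, or 2.43%. Secreted signals and their antagonists were represented by 2 of 19 genes of the TGF-beta and BMP list and by 2 of 24 genes of the Wnt list. The BMP antagonist GREM1 ranked from 66.9 to 95.4 (chr15:32730448-32731891) and the ligand BMP4 from 44.2 to 87.9 (chr14:53949975-53951081). The ligands WNT5B and WNT7A ranked from 45.3 to 92.5 and from 52.3 to 89.6. None of these 4 genes had a peak in any 786-O library. SHH, the sonic hedgehog ligand, and HHIP, which binds and blocks hedgehog ligands, were outside the lists and had no 786-O peak either. The HHIP region (chr4:144645883-144646824) covered the start shown above and ranked from 16.9 to 92.2.

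Receptors were represented by EPHB2 and EPHB4 among 19 genes of the receptor tyrosine kinase list. The EPHB4 region (chr7:100813785-100814284) ranked from 35.8 to 91.7, and EPHB4 had a peak in 2 of the 8 786-O libraries. Transcription factors were represented by TWIST1 and TWIST2 among 5 genes of the EMT list and by HOXB8 among 22 HOX genes and cofactors. TWIST1, a bHLH factor that represses E-cadherin, had exactly 2 peaks in each of the 8 RPTEC libraries and none in 786-O. Its first region (chr7:19115582-19116374) ranked from 73.9 to 92.8, and its second (chr7:19116673-19117526) from 10.6 to 89.3. TWIST2 ranked from 35.9 to 89.5. FOXL2 held regions at its start (chr3:138946430-138947913, rank 47.8 to 96.3) and further along the gene (chr3:138944876-138946180, rank 29.7 to 90.2), with 2 or 3 peaks per RPTEC library and none in 786-O.

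Further genes without any 786-O peak were picked after their values were seen and stand for no class. Of transcription factors, the motor neuron homeobox gene MNX1 (chr7:157005029-157006112) ranked at 11.2 in SETD2KO-1 replicate 1 and from 68.5 to 94.9 in the other 7 libraries. The Iroquois homeobox gene IRX1 (chr5:3598987-3600072) ranked from 43.1 to 88.3, the T-box gene TBX18 (chr6:84736951-84737556) from 49.2 upward with a median of 70.3, and the ETS family gene FLI1 (chr11:128810254-128811279) from 49.4 to 87.2. BNC1, which encodes the zinc finger protein basonuclin 1, held 2 regions, with ranks from 47.0 to 84.6 and from 11.01 to 65.2. Of signaling genes, the neurotrophin NTF3 (chr12:5494085-5494921) ranked from 39.2 to 83.7, FGF12 from 28.9 to 91.1 and SPRY4, an inhibitor of receptor tyrosine kinase signaling, from 43.2 to 82.7. TLR2, a receptor of innate immunity, held a region of 2297 bp (chr4:153702938-153705234) that ranked from 55.0 to 79.99. The heparan sulfate endosulfatase SULF2 ranked from 57.4 to 91.7, the calcium-activated potassium channel KCNN4 from 50.2 to 90.8 and PLAT, the tissue plasminogen activator on chromosome 8, from 51.6 to 85.2. Regions of TLR2, SULF2, KCNN4 and PLAT were in the upper 50% of all 8 RPTEC lists, those of the other 8 genes were not. In the KCNN4 region, however, no base was covered by peaks of all 8 libraries, so its ranks need not be of the same site.

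Of structural genes, 1 of 12 of the epithelial junction list held a region, the desmosomal linker PPL, and 1 of 19 of the mesenchymal matrix list, COL12A1, a collagen of the fibril surface, with ranks from 12.4 to 50.8. Of the symbol families, 3 of 240 ZNF genes (ZNF502, ZNF717 and ZNF229), 1 of 23 protocadherins (PCDH20), 2 of 61 solute carriers (SLC30A4 and SLC5A10) and 1 of 8 ADAM and ADAMTS proteases (ADAMTS12) held a region. SLC5A10 overlaps FAM83G at its region, so that the gene of origin is uncertain. The lists for proximal tubule markers, clear cell renal cell carcinoma markers, kidney lineage transcription factors, keratins, integrins and laminins, Hippo, Notch, p53 and CDK inhibitors, hypoxia, interferon and inflammation, cystic kidney, m6A machinery and H3K36 methylation enzymes held none among 2 to 12 genes each. Of the proximal tubule list, 2 genes had a region called in all RPTEC lists, and both were shared with 786-O in at least 1 list. With so few genes per list, these counts were not compared further.

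Whether the rank of these regions differed between the RPTEC lines was not used by the rule and was tested. The normal score of the rank was fitted over all 5454 regions called in all RPTEC lists with limma, with 2 replicates in each of the 4 lines. For SETD2 knockout against WT, 0 of the 144 regions passed an adjusted p of 0.05 (limma, Benjamini-Hochberg), and among all 5454 regions 0% passed in either direction. At an unadjusted p under 0.05, 16 of the 144 regions were higher in the knockouts (11.1%) and 6 lower (4.17%), beside 2.35% and 2.51% of all regions. The median difference of the 144 was 0.14 normal score units against -0.05 over all 5454, with a median standard error of 0.40. The ranks of the 144 also varied more between libraries, as given above, and whether this spread bears on these counts was not tested. For SETD2KO-1R against SETD2KO-1, 0 of the 144 regions passed (smallest adjusted p = 0.693 by limma), again beside 0% of all regions in either direction, and at an unadjusted p under 0.05 there were 4 higher and 8 lower (2.78% and 5.56%, beside 2% and 1.82% of all). For any difference among the 4 lines, 0 passed beside 0.0183% of all regions, and 14 of the 144 (9.72%, beside 4.42%) had an unadjusted p under 0.05. The fits do not show that the regions rank alike in the 4 lines, since a p that misses the threshold is no measure of likeness.

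For each fit, values are given for the 3 smallest p-values among regions inside protein-coding genes. Outside protein-coding genes, the region chr1:72282379-72283095 (knockout against WT, unadjusted p = 0.0023 by limma) ranked at 66.7 and 40.4 in WT and from 82.4 to 93.8 in the other 6 libraries. The region chr15:32499859-32500539 (SETD2KO-1R against SETD2KO-1, unadjusted p = 0.00676 by limma) ranked at 0.23 and 60.6 in SETD2KO-1R and at 88.8 and 92.2 in SETD2KO-1. HS3ST3A1, which encodes a heparan sulfate sulfotransferase, had the smallest for any difference among lines (chr17:13496141-13497042, adjusted p = 0.443 by limma). It ranked at 8.28 and 27.5 in WT, 71.2 and 85.1 in SETD2KO-1, 28.5 and 27.5 in SETD2KO-2 and 88.9 and 88.2 in SETD2KO-1R. The clone SETD2KO-1 and its derivative SETD2KO-1R were thus both high, and WT and SETD2KO-2 both low. The SHH region at the gene's start (chr7:155811959-155812564) ranked at 79.7 and 84.6 in WT, 85.8 and 93.8 in SETD2KO-1, 97.2 and 95.3 in SETD2KO-2 and 21.6 and 38.9 in SETD2KO-1R. Only the rescued clone stood below the others there (difference from SETD2KO-1 of -1.84 normal score units ± 0.38 SE, adjusted p = 0.693 by limma). The second SHH region (chr7:155802554-155803416) was also lowest in SETD2KO-1R, at 4.53 and 1.85, while WT replicate 1 was at 2.04.

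PPL (chr16:4883945-4886275) ranked at 95.2 and 92.8 in WT, 26.4 and 76.3 in SETD2KO-1, 90.4 and 28.3 in SETD2KO-2 and 9.80 and 0.33 in SETD2KO-1R. WT was high and the rescued clone low, with each knockout clone split between its replicates. The region of MLPH near the gene's end (chr2:237547069-237547751) had the smallest p for knockout against WT, at 1.79 normal score units ± 0.42 SE (adjusted p = 0.743 by limma). It ranked at 68.6 and 22.01 in WT, 93.6 and 99.2 in SETD2KO-1, 92.6 and 88.1 in SETD2KO-2 and 90.03 and 87.5 in SETD2KO-1R, so that the 2 WT libraries lay below the other 6 libraries, the rescued clone included. SIPA1L1, which encodes a Rap GTPase-activating protein, ranked at 23.3 and 7.07 in WT and from 34.3 to 74.1 in the other 6 libraries. The region of RASGRF2 at chr5:81086996-81087644 ranked at 28.8 and 2.10 in WT and from 29.0 to 72.2 elsewhere.

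**Figure D5:**
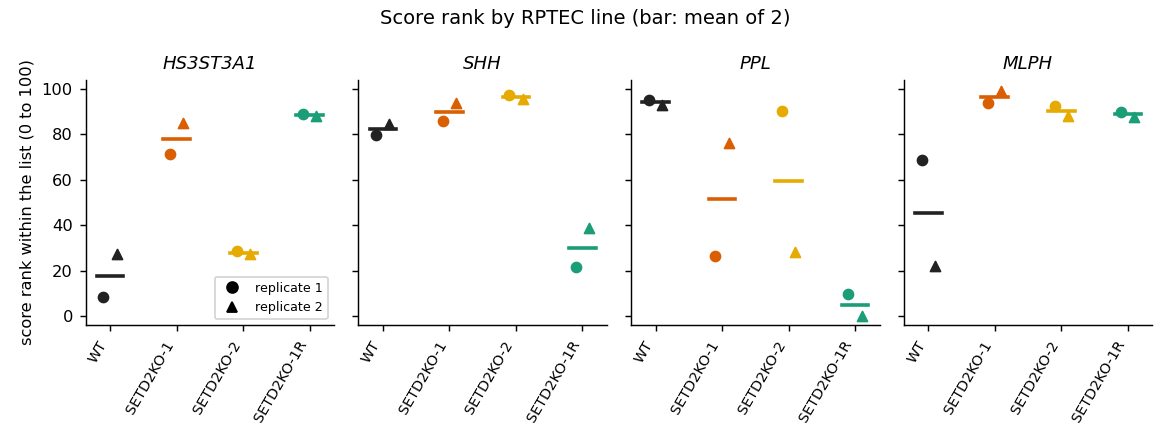
Score rank (vertical axis, 0 to 100 within the library's own list) of the HS3ST3A1 region, the SHH region at the gene's start, the PPL region and the MLPH region near the gene's end in the 4 RPTEC lines, with 1 point per replicate and a bar at the mean of 2. SHH is lowest in SETD2KO-1R, at 21.6 and 38.9, and MLPH is lowest in WT, at 68.6 and 22.01.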

How the data were processed

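MeRIP-seq peak lists of 16 IP libraries were used, 2 for each of 4 lines of RPTEC and 786-O. The authors aligned reads with STAR to hg38, used HTSeq for counting and an E. coli RNA spike-in for scaling, and called peaks per library with MACS2 over Input at a q-value of 0.05 or less. The deposited lists give a start, an end, a summit and a whole-number score of unstated scale, which was used only as a rank within its list. Calling peaks over Input in each library separately makes a call depend on depth and RNA level, and the depth is not given in the lists. Groups came from the sample labels. No source states that replicates were separate cultures, so p-values measure the spread between these libraries only.

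Peaks sharing 1 base or more on chromosomes 1 to 22 were merged, and genes were assigned by the median summit with RefSeq (GRCh38.p14). The GRCh38.p14 start windows matched 15100 of 19122 protein-coding genes. Per library, the highest scoring peak of a region was ranked, and normal scores of the ranks were fitted with limma 3.58.1 (lmFit, eBayes, line means, no replicate block) in R 4.3.3 over 5454 regions, with Benjamini-Hochberg adjustment. Run on simulated data, the fit recovered none of the regions given the smaller shifts and only a part of those given the largest. Where no region is called, smaller shifts are therefore not excluded. Other steps used Python 3.11.15. Alternatives covered peak filters, merging, score scale, variance, the replicate block and leaving out each library. Regions and gene lists were chosen with earlier results of these data known. Genes were named by rank, number of regions, smallest p, list membership, length and closeness to the rule's boundary, and others are marked where named. Same-numbered replicates did not deviate together (correlations of their deviations from the line means between -0.23 and 0.18 over 6 line pairs), so the numbers were not taken to pair the libraries.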

Additional observations from a re-analysis of the deposited data

How the results depend on the processing

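The number of regions depended on how deep each list was read. With the upper 50% of each of the 16 lists it was 49, and with the upper 50% of the RPTEC lists against all 786-O peaks it was 36, overlapping 36 of the 144 in both cases. Relaxed to at least 7 of 8 RPTEC lists and at most 1 of 8 786-O lists, it was 365. With the same number of top-scoring peaks per list, it was 113, and 83 of the 144 were overlapped. Merging peaks within 100 bp gave 146, asking for no 786-O peak within 1 kb gave 137, and asking for a base shared by all 8 RPTEC lists gave 131. Leaving out 1 library at a time gave 145 to 195 regions, with the highest count without RPTEC SETD2KO-2 replicate 2, the shortest list. Assigning genes by any overlap gave 122 regions in protein-coding genes instead of 120.

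None of the 144 regions passed an adjusted p of 0.05 by limma in any of the 43 alternatives run for the 3 fits, where 6 to 24 had an unadjusted p under 0.05. The alternatives on the upper 50% of regions by mean rank tested 55 of the 144, among 2727 regions. With the replicate block the count was also 0 in all 3 fits, and leaving out each RPTEC library in turn gave 0 to 0. A comparison of SETD2KO-1 with SETD2KO-2, added after seeing the data, gave 0 called of all 5454 regions. By limma, 6 of the 144 had an unadjusted p under 0.05 there, beside 4.22% of all regions. Where a library was left out, the lone library of its line was assumed to vary like the others. The depth is not given in the lists, and what it limits was not examined.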
